A study of Rattus norvegicus with 57 samples.

Results

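The earliest kidney response to cisplatin in these data was taken from 10 of the 57 arrays of the study: 5 from rats killed 3 days after 3 mg/kg cisplatin and 5 from rats killed 3 days after saline. The arrays were chosen by their titles alone, and each holds RNA of a different rat. In the whole study, male Han Wistar rats (strain Crl:WI(Han)), 8 weeks old, received cisplatin once by intraperitoneal injection at 0, 1 or 3 mg/kg in 0.9% saline, and kidneys were taken on days 3, 5, 8 and 26. RNA came from a homogenate of 70 mg of kidney tissue enriched in cortex, so every value is an average over tubules, glomeruli, vessels and the blood they held, and fewer cells of a type cannot be told apart from less RNA per cell. The 5 rats given 1 mg/kg and killed on day 3 are set beside these groups where their values help, and they share the same controls. The comparison asks which transcripts had moved at this first time point, before the losses of tubule transcripts seen later in the same study.

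Cisplatin is a platinum drug that enters proximal tubule cells through the organic cation carrier encoded by Slc22a2 and binds DNA, where its crosslinks stall replication and transcription. Stalled polymerases and strand breaks stabilise the transcription factor p53, which switches on genes for cell cycle arrest (Cdkn1a), cell death (Bbc3) and its own degradation (Mdm2). Platinum also reacts with thiols, and the factor NRF2 raises enzymes that rebuild or use glutathione. Damaged proximal tubule cells put KIM-1, the product of Havcr1, on their surface, and its shed part is read in urine as a marker of injury.

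Signals are linear intensities, scaled by the authors to the same level on every array. Changes are differences of group means of log2(signal + 16), with the standard error (SE) of a limma fit over all 57 arrays, and an adjusted p is Benjamini-Hochberg over the 11683 genes tested. A gene is called where that p is under 0.05. Arrays correlated at 0.989 to 0.993 within the day 3 groups. Median signals were 24.1 to 26.1 after 3 mg/kg and 21.1 to 24.0 in controls. The 3′/5′ ratio of the actin control probe sets, which rises as RNA is shorter, was 5.89 ± 0.10 (SD, n = 5; 5.74 to 6.02) after 3 mg/kg, 5.09 ± 0.30 after 1 mg/kg and 4.66 ± 0.25 (4.48 to 5.08) in controls. The treated and control ranges did not overlap (exact permutation test, two-sided, p = 0.00794, the smallest that 5 against 5 allows; 0.0136 adjusted over 12 such tests). The GAPDH ratio was 1.40 ± 0.04 against 1.34 ± 0.05 (exact p = 0.0714). The actin ratio moved with the groups and its part in the results was not tested beyond 1 refit, which held it as a covariate and called 571 genes (4.89%; 2.54% higher and 2.35% lower), 527 of them among those called without it. A fit of the 2 day 3 groups alone called 1288 genes (11%; 6.18% higher and 4.84% lower) and shared 923 with the fit over all arrays.

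On day 3, 1151 of 11683 genes (9.85%) were called, 651 higher (5.57%) and 500 lower (4.28%). With other scalings of the arrays rises and falls were nearer in number, 563 and 547 after quantile normalization and 540 and 530 after centring on the 75th percentile. Most changes were small, and 27 called genes (0.231%) reached 2-fold, 17 higher (0.146%) and 10 lower (0.0856%). Over all genes, 10.2% had 5 treated signals all above (5.69%) or all below (4.55%) the 5 controls, and 6.52% were called as well as free of overlap. With 1 of the 10 arrays left out, 828 to 1020 genes were called, and of 83 genes named here that were called, 57 were called whichever array was left out. The largest changes fell in a few groups. Among the 15 largest rises without overlap stood 5 p53 targets (Cdkn1a, Plk2, Ccng1, Phlda3 and Mdm2), 3 clock genes (Nr1d1, Per3 and Dbp), 2 immediate early genes (Egr1 and Fos), 2 injury genes (Havcr1 and Tnfrsf12a) and Gpx2. Among the 15 largest falls were 3 very long genes (Immp2l, Dpyd and Wwox) and 3 red cell genes (Hbb, Hba-a3 and Alas2). Rgn and Slc7a12, both from a proximal tubule list, stood there too. At 1 mg/kg on the same day, 11 genes (0.0942%) were called against the same controls, and 10 of these were also called at 3 mg/kg.

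**Figure D1:**
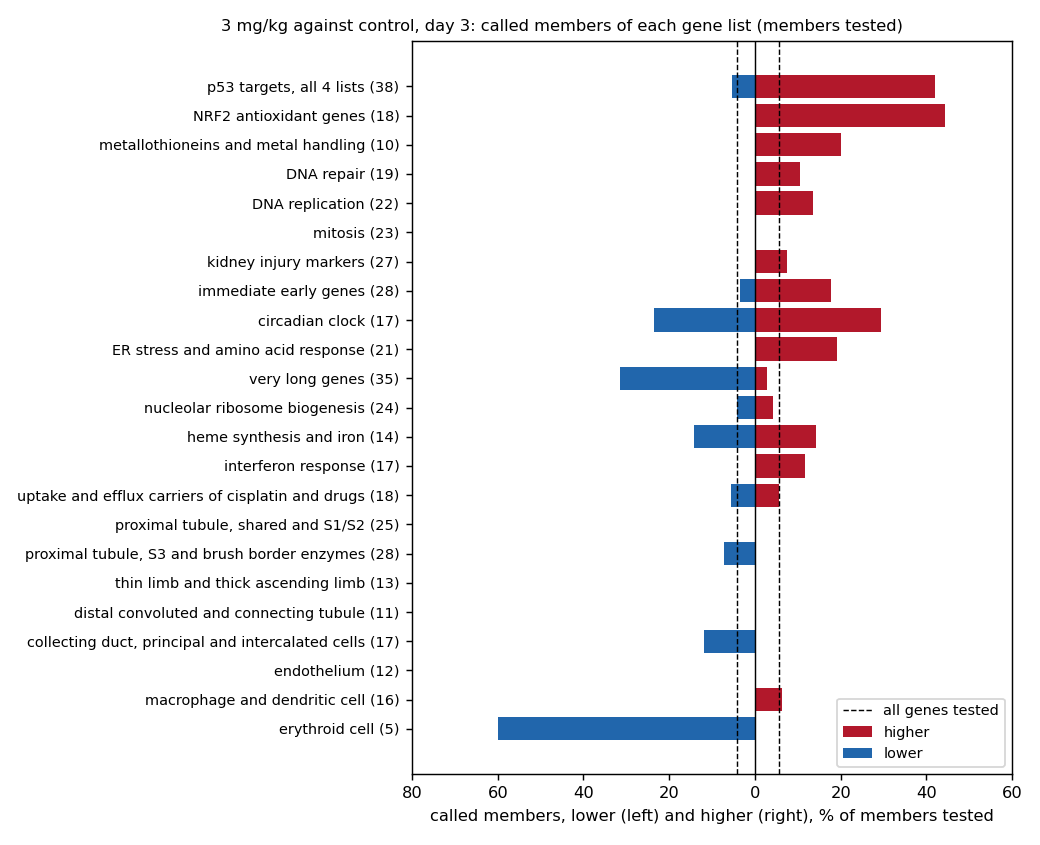
Share of the tested members of each gene list that were called on day 3 after 3 mg/kg, higher to the right and lower to the left, in percent; the number of members tested is in brackets and the dashed lines mark the shares over all 11683 genes (5.57% higher, 4.28% lower). Of 38 p53 targets 16 were higher, of 35 very long genes 11 were lower, and of 94 tubule segment genes 4 were called, all lower.

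The p53 targets gave the most rises of any list by number. Of 38 tested, of 51 listed, 16 were higher (42.1%, against 5.57% of all genes) and 2 lower (5.26%, against 4.28%), with a median change of 0.27 against 0.04 over all genes. The refit with the actin ratio held and the fit of the 2 groups alone each gave 13 higher and 2 lower. The members had been listed with earlier results of these arrays known, so the count describes them and is no independent evidence of their direction.

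Arrest genes came first in size. Cdkn1a, which encodes the cyclin-dependent kinase inhibitor p21, gave signals of 212, 218, 259.6, 337 and 378 in the 5 treated rats and 34.02, 45.6, 53.6, 60.5 and 72.00 in the 5 controls. Every treated rat was above every control, and the rise was 2.09 ± 0.19 (limma adjusted p = 1.33e-11). A second probe set of the gene rose by 2.20. Plk2, a polo-like kinase that p53 induces, read 145, 149, 152, 185 and 194 after 3 mg/kg against 25.3, 27.5, 28.9, 29.6 and 32.8 in controls. The controls lay within a few units of each other, and Plk2 rose by 2.0 ± 0.14 (limma adjusted p = 3.22e-16). Sfn, the 14-3-3 sigma protein that holds cells in G2, went from 7.09 to 10.2 to 18.7 to 27.8, dim signals that still did not overlap (0.72 ± 0.15). Rprm (0.29) and Gtse1 (0.52) were also called, Gtse1 with overlap because 1 control read 16.7 where the other controls read at most 2.72. Of the 10 arrest genes tested 5 were thus higher (50%, against 5.57% of all genes). The other 5 were not called, and the list's lowest change was 0.14.

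The feedback arm, which limits p53, held a rise that was large beside its SE. Ccng1, a cyclin that recruits a phosphatase to Mdm2, read 2487, 2572, 2631, 2677 and 2992 in treated rats and 644, 714, 724, 730.3 and 878 in controls. It rose by 1.84 ± 0.09 (limma adjusted p = 6.87e-21) with no overlap. Mdm2, the ubiquitin ligase that degrades p53, read 429, 465, 475, 524 and 541 against 207, 208, 229, 230.4 and 239.8. That rise was 1.07 ± 0.08 (limma adjusted p = 1.76e-14), and its other probe sets rose by 1.10 and 0.50. Tp53inp1 (0.35) and Mdm4 (0.32), a relative of Mdm2, were called with smaller changes, and a second Mdm4 probe set (0.13) was not called. Rchy1, another ubiquitin ligase that targets p53, fell from 619.6 to 667 to 495 to 576, by 0.26 ± 0.05 on the log2 scale. Of 7 tested, 4 were thus higher (57.1%, against 5.57% of all genes) and 1 lower (14.3%, against 4.28%).

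Death and survival genes gave 5 higher of 9 tested (55.6%, against 5.57% of all genes). Phlda3, which blocks the kinase Akt, read 108, 125, 142, 148 and 183 after 3 mg/kg and 22.3, 29.97, 31.3, 31.5 and 35.1 in controls, a rise of 1.76 ± 0.13 (limma adjusted p = 2.43e-14). Aen, an apoptosis-linked nuclease, read 109, 113, 123, 134 and 135 against controls between 56.1 and 60.1. It rose by 0.90 ± 0.08, with the controls close together and the lowest treated rat far above them. Bbc3, the BH3-only protein PUMA, went from 41.3 to 51.3 to 81.6 to 109 (0.77 ± 0.09). The death receptor gene Fas (0.39) and Pidd1 (0.30), a scaffold of caspase-2 activation, rose less.

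Repair and metabolic targets were mixed. Gdf15, a stress-induced circulating factor, read 189.7, 316, 340.5, 494 and 599 in treated rats and 61.5, 72.5, 161, 334 and 339 in controls. The groups overlapped widely, and its call (1.13 ± 0.37, limma adjusted p = 0.0394) was lost in a fit of the 2 groups alone (adjusted p = 0.102). Rps27l rose by 0.40. Sesn1, a stress protein that restrains mTORC1, went the other way, from 145 to 191 in controls to 108 to 132, with no overlap and a fall of 0.45 ± 0.10. A second probe set of Sesn1 changed by 0.04, so its probe sets do not give the same picture. Of 12 tested, 2 were higher (16.7%, against 5.57% of all genes) and 1 lower (8.33%, against 4.28%).

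The p53 targets that rose most at 3 mg/kg lay between control and 3 mg/kg levels after 1 mg/kg, while the list as a whole was near control, with a median change of 0.02 against 0.01 over all genes. Ccng1 read 1321, 1451, 1484, 1533 and 1618 at the lower dose, Plk2 52.5, 69.5, 77.1, 78.04 and 84.7 and Cdkn1a 80.2, 82.3, 94.6, 103 and 105. For each of the 3 genes the 5 rats given 1 mg/kg sat above all controls and below all rats given 3 mg/kg. The changes at 1 mg/kg were 0.99 ± 0.09 for Ccng1 (limma adjusted p = 3.63e-10), 0.97 ± 0.14 for Plk2 (1.90e-05), 0.77 ± 0.13 for Phlda3 (0.00252), 0.44 ± 0.08 for Aen (0.00476) and 0.37 ± 0.08 for Mdm2 (0.0374). Cdkn1a at 1 mg/kg (0.68 ± 0.19, limma adjusted p = 0.259) was not called. The 5 called genes are members of the p53 list among the 11 genes called at that dose, and the doses share their controls.

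**Figure D2:**
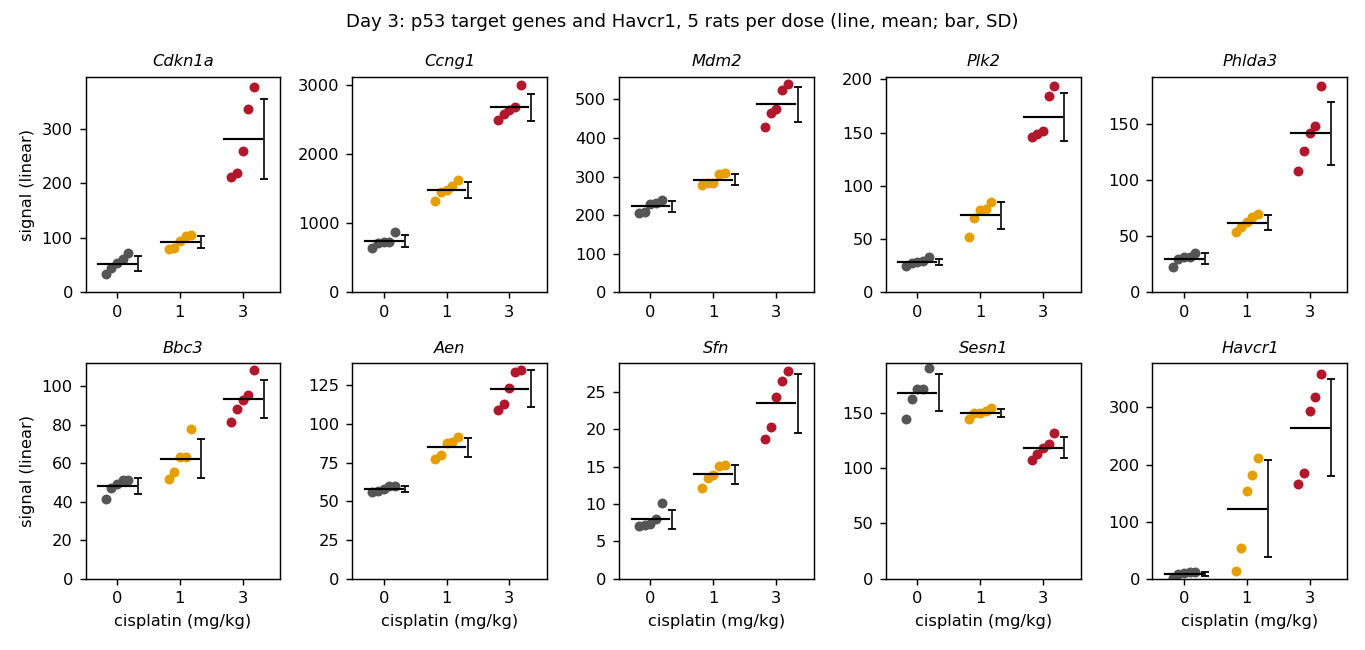
Linear signal of 9 p53 targets and Havcr1 on day 3 in 5 rats per dose (0, 1 and 3 mg/kg cisplatin); points are rats, lines means and bars SD. Ccng1 lies between 644 and 878 in controls and between 2487 and 2992 after 3 mg/kg, Sesn1 falls, and Havcr1 at 1 mg/kg spreads from 14.0 to 211.

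Promoter windows of the p53 targets were searched because these genes moved together. The windows are RefSeq sequences on GRCr8, from 250 bases before to 50 after a transcript start, and 16 of the 18 called p53 targets had one. The p53 half-site, a 10-base motif searched on both strands, stood in 6 of the 16 (Ccng1, Cdkn1a, Gtse1, Aen, Pidd1 and Sesn1), in 3 of 18 uncalled members and in 7.98% of all 33469 windows. Counted per gene, as the members are, the half-site stood in 7.02% of the 9722 tested genes with a window. The falling Sesn1 carries it as well as the rising genes. A match is a string of letters and not a measured binding site, and a p53 site further away would not be seen. Cdkn1a and Aen are printed to show a match far from and close to the start, 201 and 30 bases before it, in capitals:
Cdkn1a (chr20:7150682-7150981, + strand): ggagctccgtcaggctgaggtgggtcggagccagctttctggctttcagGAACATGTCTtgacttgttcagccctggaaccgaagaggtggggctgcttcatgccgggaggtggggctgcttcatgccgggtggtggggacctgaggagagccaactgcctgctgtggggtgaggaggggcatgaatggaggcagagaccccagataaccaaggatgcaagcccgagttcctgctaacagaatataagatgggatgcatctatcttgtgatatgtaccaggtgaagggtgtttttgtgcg
Aen (chr1:142224283-142224582, + strand): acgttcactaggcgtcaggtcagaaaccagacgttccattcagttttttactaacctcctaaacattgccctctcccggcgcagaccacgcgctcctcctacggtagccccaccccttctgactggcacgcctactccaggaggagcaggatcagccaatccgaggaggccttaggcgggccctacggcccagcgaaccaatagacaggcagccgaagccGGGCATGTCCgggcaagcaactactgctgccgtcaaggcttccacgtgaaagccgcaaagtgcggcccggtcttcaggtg

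Havcr1 showed the largest change of any called gene. Its signals were 166, 185, 293, 318 and 359 after 3 mg/kg and 1.83, 8.03, 10.6, 11.1 and 11.8 in controls, where the gene was close to the floor of the array. No rat overlapped, and the rise was 3.47 ± 0.62 (limma adjusted p = 1.94e-04; 4.28e-07 in the fit of the 2 groups alone). After 1 mg/kg its signals were 13.96, 53.9, 154, 182 and 211, so 1 rat stayed near control level while 2 lay within the range of the higher dose, and that change was not called (2.17 ± 0.62, adjusted p = 0.261). Tnfrsf12a, the receptor of the cytokine TWEAK that rises in injured tubules, read 142, 149.8, 172, 174 and 179.9 against 61.7, 63.9, 65.5, 86.6 and 89.6, a rise of 1.01 ± 0.25 (limma adjusted p = 0.00529) without overlap. Cldn4, a tight junction claudin of the distal nephron, rose from 51.9 to 57.7 to 109 to 151 (0.96 ± 0.22).

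Few other injury markers were called. Of 27 tested, 2 were called, both higher (7.41%, against 5.57% of all genes; 5 higher at an unadjusted p under 0.05), also with the actin ratio held. The median change was 0.12, and 4 were higher without overlap (5.69% of all genes). Lcn2, which encodes the iron-binding protein NGAL, read 34.97, 42.6, 46.3, 49.5 and 63.9 in treated rats and 27.3, 28.5, 29.3, 33.7 and 34.6 in controls. These ranges touch without overlapping, and the change of 0.43 ± 0.34 was not called over all arrays (limma adjusted p = 0.443) but passed in the fit of the 2 groups alone (0.0240) and in an exact permutation test (p = 0.00794, adjusted 0.0136). Clu, the chaperone clusterin, read 204, 214, 219, 227 and 246 against 183, 186, 186, 214 and 219, with overlap (exact p = 0.0794). Spp1, osteopontin, read 637, 1079, 1166, 1372 and 1517 in treated rats, 4 of which were above all controls (764 to 868) and 1 below them (exact p = 0.0714). Timp1, a protease inhibitor, overlapped throughout (exact p = 0.262). In the fit of the 2 groups alone 7 of the 27 were higher and 2 lower, where 6.18% and 4.84% of all genes were. The adhesion molecule Icam1 (0.41) was among the genes without overlap that the fit over all arrays did not call (adjusted p = 0.0553, and 0.00615 in the 2 groups).

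Every called NRF2 target gene was higher. Of 18 tested, 8 were higher (44.4%, against 5.57% of all genes) and none lower, with a median change of 0.26; at an unadjusted p under 0.05, limma gave 12 higher and 1 lower. With the actin ratio held, 6 were higher. In the fit of the 2 groups alone 11 were higher and 2 lower. Gpx2, a glutathione peroxidase of epithelia, read 131, 145, 158, 291 and 303 against 46.6, 49.2, 50.7, 54.6 and 74.3, a rise of 1.57 ± 0.39 (limma adjusted p = 0.00684). Its treated rats formed a lower trio and a higher pair, and 2 of the 5 rats at 1 mg/kg were also raised (52.2, 52.5, 65.4, 179 and 230.1). Nqo1, a quinone reductase, rose from 52.1 to 74.3 to 94.2 to 153 (0.81 ± 0.16), and Ephx1, microsomal epoxide hydrolase, from 629 to 777 to 895 to 1262 (0.63 ± 0.16). Srxn1 (0.75), which repairs oxidised peroxiredoxins, Gstp1 (0.69) and Gsta1 (0.26), both glutathione transferases, Hmox1 (0.57), heme oxygenase, and Akr1b10 (0.42) made up the rest. A second Srxn1 probe set (0.29) was not called. Akr1b8, an aldo-keto reductase, read 521, 531, 1048, 1126 and 1354 against 145, 225, 313, 326 and 470.1 and did not overlap, yet its pooled spread left it uncalled (1.57 ± 0.55, adjusted p = 0.0597; 0.00729 in the 2 groups).

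The core of the antioxidant response element, TGACNNNGC on either strand, lay in the windows of 4 of 7 called NRF2 genes that had one (Gpx2, Gstp1, Gsta1 and Ephx1), in 3 of 8 uncalled members and in 12.1% of all windows. Counted per gene, as the members are, it lay in 15.5% of the 9722 tested genes with a window. Gpx2 is printed as the called member with the largest rise, its match starting 13 bases before the start, on the other strand:
Gpx2 (chr6:101229984-101230283, - strand): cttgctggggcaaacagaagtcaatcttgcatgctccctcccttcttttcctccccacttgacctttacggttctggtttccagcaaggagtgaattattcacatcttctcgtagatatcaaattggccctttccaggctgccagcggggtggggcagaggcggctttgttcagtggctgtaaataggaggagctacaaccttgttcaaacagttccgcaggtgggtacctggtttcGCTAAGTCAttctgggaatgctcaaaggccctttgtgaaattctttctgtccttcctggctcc

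Metal-binding genes moved in part. Mt2A, a metallothionein that binds platinum and zinc, rose from 2199 to 3435 to 3761 to 4343 (0.50 ± 0.11), and Atox1, a copper chaperone, by 0.33 ± 0.07. Of 10 tested 2 were thus higher (20%, against 5.57% of all genes), and the other 8 were not called. Among 18 carriers 1 was higher and 1 lower, close to the shares over all genes (5.57% and 4.28%). The counts were 3 and 4 in the 2 groups alone (6.18% and 4.84% of all genes). They were 0 and 2 with the actin ratio held (2.54% and 2.35%). Abcc2, an apical efflux pump for glutathione conjugates, read 107, 117, 119.6, 125 and 129.9 against 48.4, 60.7, 60.8, 61.2 and 72.4 and rose by 0.83 ± 0.26 (limma adjusted p = 0.0301). That call was lost with the actin ratio held (adjusted p = 0.0697), with an offset of 64 and with control replicate 3 or 3 mg/kg replicate 2, 3 or 4 left out. Abcg2, another efflux pump, fell by 0.36 ± 0.10, with treated rats at 501, 530.2, 541, 649 and 727 and controls at 720.0, 721, 742, 750.4 and 842. Slc22a2, through which cisplatin enters, read 636, 721, 779, 782 and 816 after treatment and 939, 1007, 1049, 1088 and 1219 in controls. The 2 ranges did not overlap, and the change of -0.50 ± 0.20 was called in the 2 groups alone (limma adjusted p = 0.00233) and by the exact permutation test (p = 0.00794) but not over all arrays (0.0940). Slco1a1, an organic anion carrier, likewise did not overlap (-0.66, adjusted p = 0.108; 0.00307 in the 2 groups).

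Mitosis genes were near control levels. None of 23 mitosis genes was called by limma in either the fit over all arrays or the 2 groups alone, and 0 passed at an unadjusted p under 0.05. Their changes ran from -0.26 to 0.25. Of 22 replication genes 3 rose (13.6%, against 5.57% of all genes; 2 with the actin ratio held and 2 in the 2 groups alone): Cdt1, which licenses origins (from 6.58 to 19.7 to 23.4 to 31.2, 0.49 ± 0.12), the helicase subunit Mcm7 (0.43) and thymidylate synthase Tyms (0.42). In the repair list 2 of 19 rose (10.5%, against 5.57% of all genes), also with the actin ratio held and in the 2 groups alone. Ercc2, a helicase gene of nucleotide excision repair, went from 18.6, 20.6, 22.6, 24.7 and 31.9 to 32.00, 33.5, 34.5, 38.8 and 43.1 (0.41 ± 0.10), and the nuclease gene Ercc4 from 47.3 to 54.7 to 55.01 to 72.8 (0.27 ± 0.08). Xpc, a damage sensor, did not overlap but changed by only 0.16, which was not called.

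Clock genes moved in both directions. Of 17 tested, 5 were higher (29.4%, against 5.57% of all genes) and 4 lower (23.5%, against 4.28%). Groups did not overlap for 5 on the high side and 5 on the low side, where 5.69% and 4.55% of all genes did not. The counts called were 4 and 2 with the actin ratio held and 6 and 5 in the 2 groups alone. The clock is a feedback loop in which BMAL1 drives Nr1d1, Dbp and Per3, and the product of Nr1d1, the repressor REV-ERB alpha, shuts off Bmal1, Nfil3, Npas2 and Cry1. Nr1d1 read 103, 112, 119.5, 148 and 185 after 3 mg/kg and 17.1, 28.3, 29.1, 29.1 and 32.96 in controls, a rise of 1.77 ± 0.24 (limma adjusted p = 1.67e-06). Rats given 1 mg/kg were above every control as well (66.3, 80.2, 96.7, 101 and 116; 1.31 ± 0.24, adjusted p = 0.00465). Dbp, a transcription factor at the output of the clock, read 106, 131, 139, 249.7 and 301 against 58.4, 61.7, 70.6, 71.1 and 71.8 (1.19 ± 0.26). Per3 was near the floor in controls (1.02, 1.44, 2.29, 7.40 and 15.1) and read 25.4, 28.2, 33.04, 35.6 and 37.3 after treatment (1.19 ± 0.16). Nr1d2, the partner of Nr1d1, rose by 0.79 ± 0.18, and Cry2 by 0.27 ± 0.09.

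The falling side held the genes of the other phase. Cry1, a repressor of the clock, read 28.04, 45.6, 47.1, 51.2 and 60.6 against 80.7, 91.1, 94.4, 107 and 113, a fall of 0.87 ± 0.20 (limma adjusted p = 0.00349). Bmal1, the activator, read 34.3, 38.7, 42.6, 44.3 and 48.5 against 76.2, 76.5, 80.8, 95.4 and 102 and fell by 0.82 ± 0.15 (limma adjusted p = 2.80e-04). At 1 mg/kg its signals were 46.3, 46.3, 47.05, 50.5 and 72.3, all below the lowest control of 76.2. Nfil3 fell by 0.63 and Npas2 by 0.48, both without overlap. The hour of killing is not given in the sources used here. Rora (-0.33) and Tef (0.34) did not overlap either and were not called over all arrays.

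In the windows of the 8 called clock genes that had one, the E-box CACGTG, which BMAL1 binds, was found in Nr1d1 alone, in 3 of 7 uncalled members and in 6.42% of all windows, and AGGTCA, the half-site of the REV-ERB and ROR receptors, in Bmal1 and Nr1d2, in 0 of the 7 uncalled members and in 16.2% of all windows. Counted per gene, as the members are, the E-box lay in 9.95% and AGGTCA in 13.1% of the 9722 tested genes with a window. Nr1d1 and Bmal1 are shown as the loop's repressor and activator, with the E-box 191 and AGGTCA 15 bases before the start. The Nr1d1 window is 1 of 2 for that gene:
Nr1d1 (chr10:84229405-84229704, - strand): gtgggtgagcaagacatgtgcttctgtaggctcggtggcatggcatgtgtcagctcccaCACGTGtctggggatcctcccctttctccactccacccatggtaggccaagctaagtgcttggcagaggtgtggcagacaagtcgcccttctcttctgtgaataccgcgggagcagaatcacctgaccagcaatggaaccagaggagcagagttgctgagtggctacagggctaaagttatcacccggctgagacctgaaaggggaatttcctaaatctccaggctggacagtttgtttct
Bmal1 (chr1:176766078-176766377, + strand): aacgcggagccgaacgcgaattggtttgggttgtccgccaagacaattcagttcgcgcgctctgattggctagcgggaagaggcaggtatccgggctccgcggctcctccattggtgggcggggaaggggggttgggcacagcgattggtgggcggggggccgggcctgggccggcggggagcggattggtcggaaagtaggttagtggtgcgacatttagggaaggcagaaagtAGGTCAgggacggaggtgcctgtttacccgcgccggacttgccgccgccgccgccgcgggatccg

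Immediate early genes, which respond to growth factors and stress within minutes, gave 5 higher (17.9%, against 5.57% of all genes) and 1 lower (3.57%, against 4.28%) of 28 tested. With the actin ratio held 4 were higher and none lower, and in the 2 groups alone 8 were higher and none lower (limma). The median change was 0.28. Egr1, a zinc finger factor, read 753, 847, 1556, 1611 and 1888 in treated rats and 115, 260.4, 353, 536 and 547 in controls. It rose by 1.92 ± 0.35 (limma adjusted p = 2.51e-04) with no overlap, although both groups were wide. Fos read 163, 246, 293, 304 and 483 against 36.4, 82.4, 93.9, 125 and 136, a rise of 1.52 ± 0.40 that was not called with the actin ratio held (adjusted p = 0.0890). Ier2 (0.75), Junb (0.69) and the dim Fosl1 (0.58) rose too. Ccn2, a matricellular growth factor, was lower by 0.80 ± 0.22 with overlap and with 2 controls far above the rest (839.8, 1063, 1296, 2577 and 2606 against 775, 795, 826, 900.2 and 1030.2), and the call was lost in the 2 groups alone (adjusted p = 0.0692).

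**Figure D3:**
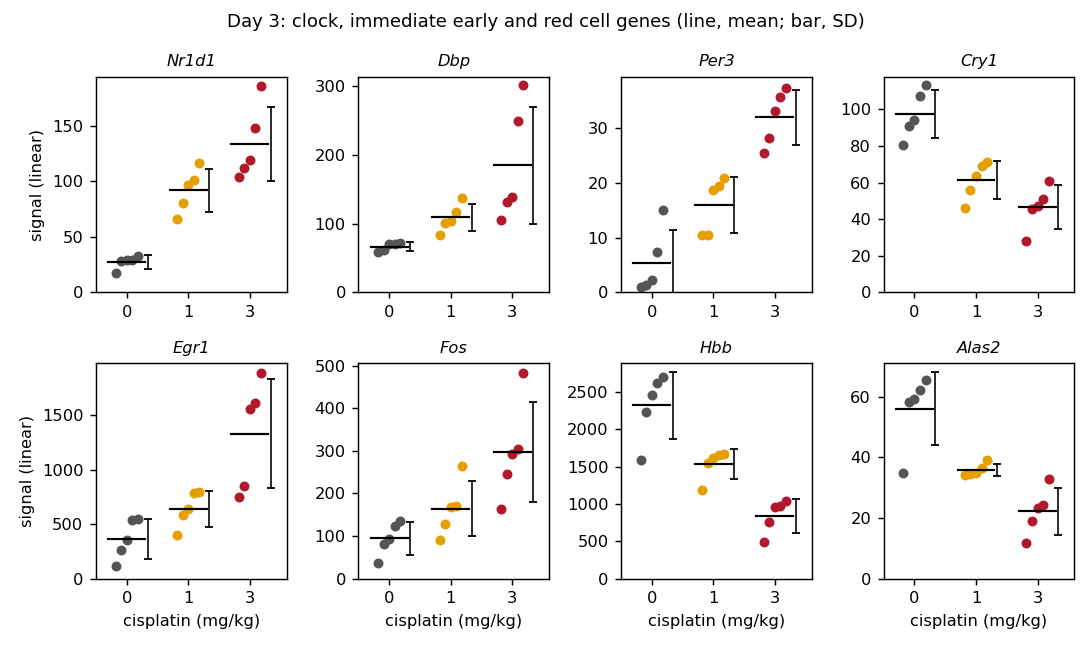
Linear signal on day 3 of 4 clock genes, 2 immediate early genes and 2 red cell genes in 5 rats per dose; points are rats, lines means and bars SD. Nr1d1, Dbp and Per3 are higher and Cry1, Hbb and Alas2 lower after 3 mg/kg, each without overlap with the controls, and the means after 1 mg/kg lie between.

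Very long genes gave the most falls of any list by number, while red cell genes had the larger share (3 of 5) and median (-0.92). RNA polymerase takes long to read such genes through, and a platinum lesion anywhere along the way can stall it. Of 35 tested of 55 listed, 11 were lower and 1 higher, where 4.28% of all genes were lower. One of the 11, Rnf125, is a short gene that stood on the list in error. Without it 10 of 34 were lower (29.4%), and 11 did not overlap on the low side, where 4.55% of all genes did not. The median change was -0.18 against 0.04 over all genes. With the actin ratio held 9 were lower, and in the 2 groups alone 11 of the 35 were, Rnf125 among them. The list was drawn up with earlier results of these arrays known.

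Immp2l, a mitochondrial peptidase gene, read 13.4, 17.5, 21.9, 24.2 and 30.6 after 3 mg/kg and 58.8, 60.02, 66.9, 67.8 and 87.6 in controls, a fall of 1.17 ± 0.18 (limma adjusted p = 1.17e-05). Dpyd, the enzyme that starts pyrimidine breakdown, read 38.95, 42.5, 46.4, 54.5 and 61.4 against 88.3, 103, 136, 148 and 162 and fell by 1.13 ± 0.12 (limma adjusted p = 8.87e-10). Wwox, a gene that spans a fragile site, read 12.9, 18.3, 18.8, 23.4 and 26.8 against 40.1, 48.3, 49.4, 49.5 and 52.1, a fall of 0.84 ± 0.11 (limma adjusted p = 1.11e-06), and at 1 mg/kg it was the one called gene that fell (19.2, 23.2, 27.7, 27.8 and 33.3; -0.60 ± 0.11, adjusted p = 0.00465). For each of the 3 genes every treated rat was below every control. A second Wwox probe set changed by -0.02, and which part of the transcript each reads was not analysed here. Fhit, at another fragile site, went from 95.1 to 118 to 53.9 to 92.2 (-0.51), and the methyltransferase gene Smyd3 from 19.4 to 26.4 to 8.25 to 16.8 (-0.55). Pde4d (-0.45), Ccser1 (-0.40), Rad51b (-0.33), Fndc3b (-0.30) and Ptprk (-0.26) fell less. Zbtb20, a transcription repressor, was the member that rose (0.27 ± 0.08, from 609 to 811 to 846 to 916), and 23 of the 34 were below 0.

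**Figure D4:**
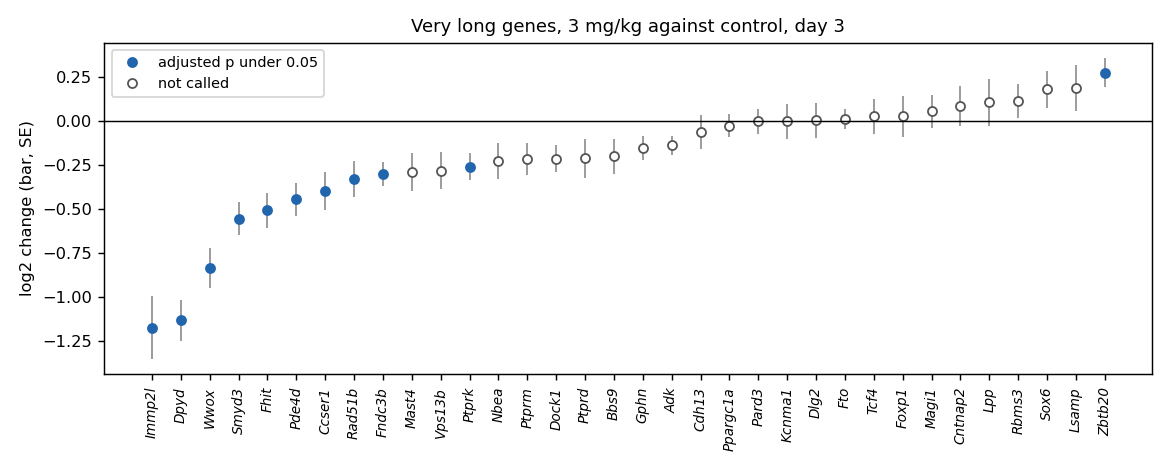
Log2 change on day 3 (3 mg/kg minus control) of the 34 very long genes tested, in order of size; bars are SE of the fit and filled points were called at an adjusted p under 0.05. The changes run from -1.17 for Immp2l to 0.27 for Zbtb20, and 10 of the 11 called lie below 0.

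Several of the largest falls belong to no such group. Gtpbp4, a nucleolar GTPase that matures the large ribosomal subunit, read 72.7, 191, 197, 287 and 449.8 against 562, 627, 653, 708 and 731. It fell by 1.59 ± 0.39 (limma adjusted p = 0.00544) with a wide treated spread, and a second probe set fell by 1.72. None of the other 23 nucleolar genes tested was called lower. Nucleolin (Ncl) rose by 0.19 ± 0.06, the 1 called rise of 24 (4.17%, against 5.57% of all genes). Without overlap 4 were higher (5.69% of all genes were). In the 2 groups alone 2 were higher (6.18%), and with the actin ratio held none was (2.54%). At an unadjusted p under 0.05, limma gave 5 higher and 2 lower. Sgk1, the aldosterone- and glucocorticoid-induced kinase, read 1002, 1045, 1115, 1207 and 1232 against 1453, 1658, 2199, 3026 and 3564 and fell by 1.0 ± 0.22. Of 14 glucocorticoid response genes tested, Sgk1 was the 1 called lower (7.14%, against 4.28% of all genes). Another 2 were called higher (14.3%, against 5.57%), Mt2A (0.50) and Cdkn1c (0.39). Rnf125, a ubiquitin ligase, fell by 1.15 ± 0.21, and Prep, a prolyl peptidase, by 0.96 ± 0.24. Epha4, an ephrin receptor, fell by 0.93 ± 0.15 on its brightest probe set, while of 3 others 1 fell by 0.60 and 2 changed by 0.02 and 0.04. C2h3orf80 fell by 0.91 ± 0.30. Rises outside the lists were Ces2c, a carboxylesterase (104 to 141 to 254 to 338, 1.11 ± 0.12), and Cryga, a crystallin (40.7 to 102 to 112 to 192, 1.10 ± 0.19; 0.54 on a second probe set).

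Few of the transcripts that define nephron segments were called. Of 94 tested, limma called 4 lower (4.26%, against 4.28% of all genes) and none higher (against 5.57%). The median change was 0.03. Without overlap 1 was higher and 7 were lower, where 5.69% and 4.55% of all genes were. The fit of the 2 groups alone called 6 higher and 8 lower, where 6.18% and 4.84% of all genes were. With the actin ratio held 4 were lower (4.26%, against 2.35% of all genes) and none higher (against 2.54%). None of 25 genes of the list of shared and early proximal tubule genes was called. Nor was any of 13 of the thin limb and thick ascending limb or 11 of the distal convoluted and connecting tubule. At an unadjusted p under 0.05, limma gave 8 higher and 1 lower, 0 and 1, and 1 and 1 in these lists. Slc34a1, the phosphate carrier of the early proximal tubule, read 4100.5 to 4707 after treatment and 3682 to 4729 in controls on its brightest probe set (0.12 ± 0.08, limma adjusted p = 0.323). A second Slc34a1 probe set rose by 1.11 ± 0.19 (limma adjusted p over all probe sets = 1.34e-04), and the gene was called when its probe sets were averaged. Umod, uromodulin of the thick ascending limb, read 3566 to 4007 against 3089 to 3642 (0.13 ± 0.52, limma adjusted p = 0.904; exact permutation p = 0.0317, adjusted 0.0476, but 0.802 after quantile normalization). Egf, made in the distal tubule, read 2513 to 2941 against 2733 to 3812 (-0.26 ± 0.36, limma adjusted p = 0.689). In the 2 groups alone its SE was 0.08 and its limma adjusted p 0.0532.

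The called falls are given by the list they came from. Of 28 straight-segment and brush border genes of the proximal tubule 2 were lower (7.14%, against 4.28% of all genes). Of 17 collecting duct genes 2 were lower (11.8%). Rgn, regucalcin, read 338, 381, 500.4, 538 and 539 after 3 mg/kg and 931, 1019, 1160.01, 1646 and 1763 in controls, a fall of 1.45 ± 0.37 (limma adjusted p = 0.00791). Slc7a12, an amino acid carrier, read 97.8, 119, 129, 132 and 189.9 against 236, 261, 318, 388 and 457 and fell by 1.21 ± 0.33 (limma adjusted p = 0.0136). Neither overlapped, and the other 26 genes of the proximal list were not called. In the collecting duct list the water channel gene Aqp3 fell by 0.46 ± 0.14 with overlap. Carbonic anhydrase Car2 fell from 1821 to 1985 to 1464 to 1664 (-0.29). Calb1, the calcium buffer of the distal convoluted tubule, did not overlap (2023 to 2227 against 2454 to 3021) and was called in the 2 groups alone (limma adjusted p = 0.00249) but not over all arrays (0.139). The same held for the potassium channel gene Kcnj1 (-0.31, 0.0150 and 0.274).

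The red cell transcripts that were called were all lower. Hbb, beta-globin, read 487, 761, 959, 972 and 1047 after 3 mg/kg, 1189, 1549, 1618, 1651 and 1674 after 1 mg/kg and 1592, 2236, 2463, 2617 and 2707 in controls, and it fell by 1.47 ± 0.33 (limma adjusted p = 0.00251). Hba-a3, an alpha-globin, fell by 1.27 ± 0.34, and Alas2, the first enzyme of heme synthesis in red cell precursors, by 0.92 ± 0.24. None of the 3 overlapped with controls. Globin genes have near-identical copies whose probes can cross-read, so the copy is uncertain. Of 15 red cell genes listed 5 were tested, and 3 were called, all lower (60%, against 4.28% of all genes). Not every member fell, and the highest change was 0.15. The summed signal of the 5 was 730 to 1423 in treated rats and 2089.9 to 3346 in controls. Most of that sum is Hbb, so it adds little to the values of that gene. Alb, albumin, also fell, by 1.03 ± 0.31 with overlap, the only call among 9 liver genes, and not in the 2 groups alone (adjusted p = 0.0530). A second Alb probe set (-0.72) was not called.

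Other cell types gave few calls. Of 16 macrophage and dendritic cell genes 1 rose (6.25%, against 5.57% of all genes), Cd74, the chaperone of class II antigen presentation (0.32 ± 0.10). The summed signal of the 16 was 5958 to 7186 in treated rats and 5217 to 6259.7 in controls. Much of that sum is Cd74 itself, which read 2679 to 3379 and 2118 to 2722. Among 12 endothelial, 7 lymphocyte, 3 neutrophil and 18 fibroblast genes none was called by limma over all arrays; the fit of the 2 groups alone called 1 endothelial gene in each direction and none of the other 3 lists. At an unadjusted p under 0.05, limma gave 3 endothelial, 2 fibroblast and 0 lymphocyte or neutrophil genes. The podocyte list gave 1 rise of 9 tested (11.1%, against 5.57% of all genes), Cdkn1c (0.39), a cell cycle inhibitor. Of 14 chemokine and inflammation genes none was called over all arrays, 1 was higher at an unadjusted p under 0.05 and 1 rose in the 2 groups alone (limma). In the interferon list 2 of 17 rose (11.8%, against 5.57% of all genes), and 4 in the 2 groups alone: Cxcl10, an interferon-induced T cell attractant, from 23.3, 26.8, 28.7, 32.2 and 36.3 to 63.1, 66.7, 69.7, 70.4 and 70.7 (0.89 ± 0.17, limma adjusted p = 3.40e-04), and Oasl by 0.40, a call lost with the actin ratio held (adjusted p = 0.0583).

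Of 21 genes of the endoplasmic reticulum and amino acid stress response 4 rose (19%, against 5.57% of all genes), 5 in the 2 groups alone and 2 with the actin ratio held. They were the death-linked factor Ddit3 (0.43), Trib3 (0.37), Chac1 (0.33), which degrades glutathione, and Atf5 (0.27). Iron handling gave a rise of the iron importer Slc11a2 from 475 to 559.8 to 690.5 to 863 (0.62 ± 0.14; 0.14 and not called on a second probe set) and a fall of ferrochelatase Fech (-0.25). Of 17 apoptosis regulators outside the p53 list 1 was called in each direction, close to the shares over all genes (5.57% and 4.28%). Xiap, a caspase inhibitor, was higher (0.38; -0.08 on a second probe set) and Bad, a death promoter, lower (-0.27), and neither was called with the actin ratio held (adjusted p = 0.0937 and 0.141). Fatty acid genes gave 1 call of 18, a rise of Cyp4a8 (0.28), a share of 5.56% against 5.57% of all genes. None of 12 cholesterol synthesis genes was called by limma over all arrays, 2 were lower at an unadjusted p under 0.05 and 3 were lower in the 2 groups alone, and their median change was -0.18. Their summed signal was 2453 to 2864 in treated rats and 2865 to 3494 in controls, ranges that touch without overlapping.

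Whether an effect differed on a later day was tested as a difference between same-day effects, which uses the day 3 arrays again. Between days 3 and 5 the effect of 3 mg/kg differed for 177 genes (1.52%; 0.573% upward and 0.942% downward), and between days 3 and 8 for 2010 (17.2%; 8.59% upward and 8.62% downward). Against their own controls, 8.8% of all genes were called on day 5 (5.31% higher and 3.49% lower), 37.3% on day 8 (21.4% higher and 15.9% lower) and 0.753% on day 26 (0.556% higher and 0.197% lower). Genes picked for being called on day 3 lean towards smaller effects on any other day, so the counts of gains and losses among them are not read as a direction.

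The p53 list had medians of 0.27, 0.24 and 0.32 on days 3, 5 and 8 and 0.15 on day 26. On day 8, 21 were higher and 3 lower, where 21.4% and 15.9% of all genes were. For 3 of the 38 the effect differed from day 3, as it did for 17.2% of all genes. Injury markers had medians of 0.12, 0.44 and 1.03. For 19 of the 27 the effect differed between days 3 and 8, 18 of them upward (17.2% and 8.59% of all genes). For Havcr1 the changes were 3.47, 4.85 and 5.88 on days 3, 5 and 8, and the gain to day 8 was 2.41 ± 0.88 (limma adjusted p = 0.0498). Tnfrsf12a gained 1.70 ± 0.35 by day 8, Abcc2 1.87 ± 0.36, Srxn1 1.42 ± 0.29 and Cldn4 0.98 ± 0.31. Mitosis genes, of which none had been called on day 3, were higher in 21 of 23 on day 8 (21.4% of all genes were).

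Many segment genes were lower on day 8. The thin limb and thick ascending limb list had a median of 0.00 on day 3 and -1.24 on day 8. On day 8, 10 of 13 were lower (15.9% of all genes were). For 9 of these 13 genes the effect differed from day 3 (17.2% of all genes). Umod changed by 0.13 on day 3 and -4.71 on day 8, a difference of -4.84 ± 0.74 (limma adjusted p = 6.21e-06). Egf changed by -0.26 and -3.52 (-3.26 ± 0.51, limma adjusted p = 1.05e-05). Over all 94 segment genes 4 were lower on day 3 (4.28% of all genes were), 5 on day 5 (3.49%), 46 on day 8 (15.9%) and 0 on day 26 (0.197%). For 36 the effect was lower on day 8 than on day 3 by its own test (8.62% of all genes). Prps2, an enzyme of nucleotide synthesis, fell by 0.43 on day 3 and 1.70 on day 8 (-1.27 ± 0.20).

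Some effects of day 3 had turned around on day 5 or day 8, and others were smaller. Cryga rose by 1.10 on day 3 and changed by -1.40 on day 8 (-2.50 ± 0.27, limma adjusted p = 9.70e-09). Hao1, a peroxisomal oxidase, changed by 0.88 and -0.68, Vill, a villin-like protein, by 0.52 and -0.81, and the splicing factor gene Cwc27 by 0.49 and -0.87. Azgp1, a secreted glycoprotein, went the other way, -0.81 and 0.71. Immp2l, -1.17 on day 3, was at 0.15 on day 8, which was not called against control (day 8 minus day 3 1.32 ± 0.25, limma adjusted p = 1.88e-04). The membrane remodelling gene Chmp2b was reversed on day 5 but not on day 8, with changes of 0.43, -0.61 and 0.37 on days 3, 5 and 8 (day 5 minus day 3 -1.05 ± 0.16, limma adjusted p = 1.12e-04). Per3 had come down on day 5 from 1.19 to 0.38 (-0.81 ± 0.23, adjusted p = 0.0494) and was at 0.72 on day 8.

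**Figure D5:**
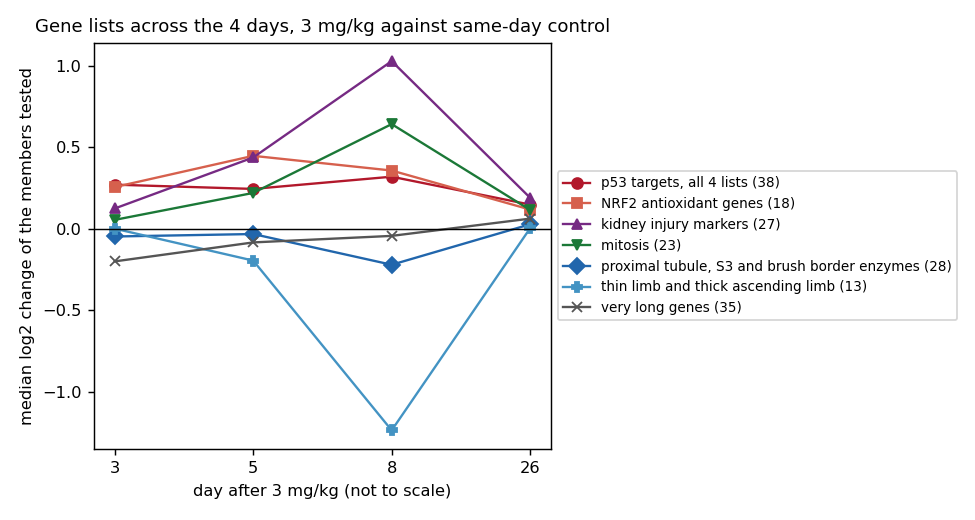
Median log2 change of the tested members of 7 gene lists after 3 mg/kg against same-day controls on days 3, 5, 8 and 26 (axis not to scale); the number of members is in brackets. On day 3 the p53 and NRF2 lists lie at 0.27 and 0.26 while the thin limb and thick ascending limb list lies at 0.00. On day 8 that limb list lies at -1.24 and the injury markers at 1.03.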

How the data were processed

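Kidney RNA of 57 rats was read on Affymetrix Rat 230 2.0 arrays, 1 rat per array, labelled as biological replicates. The authors deposited linear intensity values; the submitters' processing notes name MAS5, without version or settings. The trimmed mean signal (2% off each end) was 99.99 on every array. Of 31099 probe sets, 20826 had 1 gene symbol in the platform annotation, updated through the RefSeq GRCr8 table (20758 by Entrez number), 436 had several, 9780 none and 57 were controls.

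Signals were taken to log2(signal + 16), which lowers the changes of dim genes. Probe sets above the 40th percentile on at least 3 arrays were kept (21829), and each gene was read from its brightest one (11683 genes). Limma 3.58.1 in R 4.3.3 fitted a mean for each of 12 groups over all 57 arrays with an intensity trend; tests were two-sided with Benjamini-Hochberg adjustment within a contrast. The pooled spread makes p-values too large for genes that vary mainly on later days, so a fit of the 2 groups alone is given beside such genes. On simulated data for this contrast, over 11683 genes, 81% of changes of 0.5 and 98% of changes of 1 were recovered, with 8 false calls. The simulated noise of a gene had the same spread on every array. These figures therefore do not cover genes whose spread differs between groups. Single genes and ratios were also tested by exact permutation of the 5 and 5 arrays, adjusted over 12 tests. The number of arrays limits the precision.

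The members and gene lists were chosen with earlier results of these data known. Genes named are the 15 largest called rises and falls without overlap, up to 4 called members per list, 14 genes given whatever their result, and up to 6 called genes per direction whose effect differed on day 5 or day 8; others are list members chosen after their values were seen. Replicate numbers did not pair the samples. Alternatives covered the offset, scaling, filter, summary of probe sets, variance model, samples fitted, array weights, replicate block, RNA quality ratios and leaving out each array. Promoter windows were searched with Python 3.11.15.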

Additional observations from a re-analysis of the deposited data

Results flagged for a closer look

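In 9 of 188 sets of 5 arrays looked at (named genes and quality measures, in either day 3 group), 1 array stood apart from the rest by a gap that was over 0.71 of the whole range. Chance flags about 1 in 20 such sets. These were control replicate 3 for Abcg2 (highest, 842) and Alas2 (lowest, 34.9), control replicate 2 for Nr1d1 (lowest, 17.1), control replicate 5 for Gtse1 (highest, 16.7) and the GAPDH 3′/5′ ratio (highest, 1.42), and, after 3 mg/kg, replicate 1 for Gstp1 (lowest, 1776) and Srxn1 (lowest, 97.1), replicate 2 for Slc34a1 (lowest, 4100.5) and replicate 4 for Gtse1 (lowest, 6.60).

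The change after 3 mg/kg was lower on day 5 than on day 3, by a test of the difference in limma, for Chmp2b (-1.05), LOC102548022 (-1.0), Cdca4 (-0.86), Plekhj1 (-0.85), Per3 (-0.81) and H4cl1 (-0.77). On day 5 itself Chmp2b (-0.61) and LOC102548022 (-0.60) were called lower, the reverse of day 3. The day 8 effect was lower than that of day 3 for Cryga (-2.50), Hao1 (-1.57), Cwc27 (-1.36), Vill (-1.33) and Prps2 (-1.27). It was higher for Havcr1 (2.41), Abcc2 (1.87), Tnfrsf12a (1.70), Azgp1 (1.52), Srxn1 (1.42), Immp2l (1.32) and Cldn4 (0.98).

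Of 5674 kept probe sets without 1 gene symbol, 781 (13.8%) were called on day 3, 579 higher and 202 lower, against 9.85% of the named genes. The largest rises without overlap were 1370583_s_at (1.90 ± 0.23, mean signal 154 against 29.6) and 1394283_at (1.15 ± 0.23, 152 against 63.0). The largest falls were 1371102_x_at (-1.68 ± 0.36, 328 against 1068) and 1381233_at (-1.36 ± 0.36, 173 against 475). These probe sets are unnamed here.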

How the results depend on the processing

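The count of genes changed on day 3, 1151, stayed within 1.5 times under 13 of 16 other settings. It was 2370 over every kept probe set, 1732 with array weights and 571 with the actin 3′/5′ ratio as a covariate. Leaving out each array in turn gave 828 to 1020. The effect differed between days 3 and 5 for 177 genes, for 381 with array weights and for 87 with the actin ratio held. Leaving out 1 array gave 67 (without 3 mg/kg day 5 replicate 3) to 243, and the count fell more than 1.5 times for 10 of 20 arrays: control day 3 replicates 3 (102) and 5 (83), control day 5 replicates 2 (87), 3 (87) and 4 (83), 3 mg/kg day 3 replicates 1 (90) and 3 (108), and 3 mg/kg day 5 replicates 1 (104), 2 (97) and 3 (67). Between days 3 and 8 the 2010 genes became 1286 when the fit held only the 4 groups compared, and 1683 to 2436 with 1 array left out. The replicate number as a block gave 1194, 181 and 2056 for the 3 counts. The replicate numbers did not pair the samples: deviations of same-numbered rats correlated at -0.10 to 0.11.

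In the exact permutation tests, Umod (0.13, adjusted p = 0.0476) was 0.0132 after quantile normalization (adjusted p = 0.802) and 0.12 after centring on the 75th percentile (0.0741), and 0.10 to 0.15 with 1 array left out, where its call was lost for 7 of 10 arrays. Without 3 mg/kg replicate 4, Spp1 passed (0.63, adjusted p = 0.0119). Its changes with 1 array left out were 0.33 to 0.63. The GAPDH ratio passed without control replicate 5 (0.0866, adjusted p = 0.0212; range 0.0524 to 0.0866). No named gene that was called changed direction under any setting. The setting with every kept probe set could not show such a change, since it read each gene from the probe set nearest its main result. Other probe sets of Sesn1 (0.04), Xiap (-0.08), Cdca4 (-0.15) and Epha4 (0.02 and 0.04) were opposite in sign to the chosen one, and none of these was called. Of the 83 named genes that were called, 26 lost the call with at least 1 array left out, most often Plekhj1 and Xiap (9 of 10 arrays each), Gtse1, Ncl, Prps2 and C2h3orf80 (8 each), and 23 lost it with the actin ratio held; their cause was not tested. No setting was left out.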
